A study of Mus musculus with 384 samples.

Results

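The nuclear genes of oxidative phosphorylation were 82 of the 31617 genes counted in single formative stem (FS) cells and epiblast stem cells (EpiSCs) of the mouse. They were chosen by name alone: protein-coding genes whose symbols mark a subunit of respiratory complexes I to IV or of the ATP synthase, complex V. Complex I held 35 members, complex II 4, complex III 8, complex IV 18 and complex V 16, and Atp5s was kept apart. A further 12 rows with matching symbols were pseudogenes or noncoding RNAs and were left out.

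Complexes I to IV pass electrons from NADH and succinate to oxygen, and complexes I, III and IV pump protons out of the mitochondrial matrix. The ATP synthase uses the returning protons to make ATP. Most subunits are encoded in the nucleus and a few of the central ones in mitochondrial DNA. The table held 0 genes of the mitochondrial chromosome, so the mitochondrial subunits were not analysed here. Several complex IV subunits exist as pairs, with a widely expressed isoform and one known from muscle, lung or testis.

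The pluripotent cells compared were of 2 classes, with 2 lines each. FS cell lines 5ar1 and 5ar2 were grown in A3XR, which holds a low dose of activin, the tankyrase inhibitor XAV939 and the retinoic acid receptor inverse agonist BMS493. EpiSC line AFX6 was grown in AFX, with activin, Fgf2 and XAV939, and EpiSC line AF32 in AF, with activin and Fgf2 only. All were kept in reduced oxygen, and the strain of each line was not given in the sources used here. From each line 96 sorted cells were sequenced by Smart-seq2, which copies full-length mRNA without molecular identifiers. The 326 cells with at least 3000000 counts were kept, 90 from 5ar1, 90 from 5ar2, 66 from AFX6 and 80 from AF32, and each held 3022666 to 6686007 counts.

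Lines, not cells, were the replicates. Each EpiSC medium had a single line, so medium and line cannot be told apart in EpiSCs. Pou5f1, a pluripotency factor, stood at 490 to 644 counts per 1000000 counts (CPM) in every line. Nanog, another, stood at 28.5 and 33.5 CPM in the FS lines against 159 in AFX6 and 399.9 in AF32, and Sox2 at 4.88 to 17.5 CPM, lowest in AFX6. The streak gene T stood at 39.1 CPM in AF32 and at 0.382 CPM or less in the other lines. The other streak genes checked did not follow T. Mixl1 stood at 0.0371 to 0.379 CPM over the lines, and Mesp1 at 0.253 CPM in 5ar1 and 0 CPM elsewhere. Fgf5, a marker of the post-implantation epiblast, stood at 229 and 272 CPM in the FS lines against 30.7 and 44.9 CPM in EpiSCs. Of the 4 muscle markers checked, 3 stayed under 1 CPM in every line, while Actc1 reached 129 CPM in 5ar2. The 3 feeder fibroblast markers summed to 6.62 to 40.7 CPM per line. Their part in the results below was not tested.

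Many members carry short DNA motifs in their promoters. RefSeq promoter windows (GRCm38.p6), from 250 bases before to 50 bases after the start, were found for 67 of the 82 members, as 72 windows. The NRF1 motif GCGCATGC, searched on both strands, stood in 13.9% of the member windows and in 2.71% of the 32851 windows of all genes. NRF1 is a transcription factor known for binding promoters of respiratory genes. The YY1 motif AAGATGGC stood in 13.9% and 2.75%, the ERR motif TCAAGGTCA in 2.78% and 0.423%, the ETS motif CCGGAAGT in 6.94% and 3.89%, and the SP motif GGGCGG in 40.3% and 35.7%. A match is a description of letters and not a binding site.

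The YY1 letters lay at nearly the same place in 8 of the 10 members that held them: on the strand of the gene, with their first base 20 to 40 bases after the start. Of the 903 windows of all genes with this motif, 18.1% held it there, a range chosen after the member positions were seen. These 8 stretches are shown because the shared position can be read from them; each is written 5′ to 3′ on the strand of the gene, with the motif in capitals, and the number of its first base after the start is given below.
Ndufa3: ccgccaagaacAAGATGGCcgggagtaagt
Ndufa9: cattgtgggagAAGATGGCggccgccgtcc
Ndufb8: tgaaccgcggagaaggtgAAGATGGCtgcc
Ndufc1: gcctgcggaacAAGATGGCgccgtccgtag
Ndufs4: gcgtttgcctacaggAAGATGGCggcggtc
Ndufs6: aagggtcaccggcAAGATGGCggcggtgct
Ndufs7: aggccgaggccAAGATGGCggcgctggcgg
Atp5j2: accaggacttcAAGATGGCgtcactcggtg

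The motif began 23 bases after the start in Ndufa3 (chr7:3617384-3617413, plus strand) and in Ndufc1 (chr3:51408915-51408944, minus strand). It began at base 24 in Atp5j2 (chr5:145191500-145191529, minus strand), 25 in Ndufs7 (chr10:80249462-80249491, plus strand) and 30 in Ndufa9 (chr6:126849097-126849126, minus strand). It began at base 34 in Ndufs6 (chr13:73328433-73328462, minus strand), 36 in Ndufs4 (chr13:114388045-114388074, minus strand) and 39 in Ndufb8 (chr19:44555393-44555422, minus strand). Of these 8 genes, 7 encode complex I subunits and 1, Atp5j2, a membrane subunit of the ATP synthase.

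The NRF1 motif stood as a palindrome of 10 bases in 5 members, which come from complexes I, III, IV and V. The stretches are shown, with the palindrome in capitals, because no complex held this motif alone.
Ndufa11: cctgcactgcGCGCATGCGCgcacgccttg
Uqcrc1: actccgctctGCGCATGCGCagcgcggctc
Cox6a1: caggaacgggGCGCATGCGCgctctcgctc
Atp5g2: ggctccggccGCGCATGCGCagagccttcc
Atp5k: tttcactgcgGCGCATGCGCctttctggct

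The palindrome began 60 bases before the start in Ndufa11 (chr17:56717692-56717721, plus strand), 50 before it in Atp5k (chr5:108434430-108434459, minus strand) and 42 before it in Atp5g2 (chr15:102671070-102671099, minus strand). In Cox6a1 (chr5:115349101-115349130, minus strand) it began 162 bases before the start, and in Uqcrc1 (chr9:108936668-108936697, plus strand) 31 bases after it. Members with either motif differed little between FS cells and EpiSCs. The log2 fold changes of the 10 NRF1 members ran from -0.32 to 0.66 with a median of 0.09, and those of the 10 YY1 members from -0.36 to 0.48 with a median of 0.01.

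The 82 members together took about the same share of the transcriptome in all 4 lines. Their summed counts were 1.90% of all counts in FS line 5ar1 and 2.06% in 5ar2, against 1.99% in EpiSC line AFX6 and 2.00% in AF32. The FS lines lay on either side of the EpiSC lines, and the means were 1.98% ± 0.117 (SD, n = 2 lines) in FS cells and 1.99% ± 0.0119 (SD, n = 2 lines) in EpiSCs. Of the members, 65 had at least 1 count in every kept cell and 77 had at least 10 CPM in every line. In the sums over a line, fewer cells with a transcript and less of it per cell cannot be told apart, so low members are also given by cell.

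**Figure D1:**
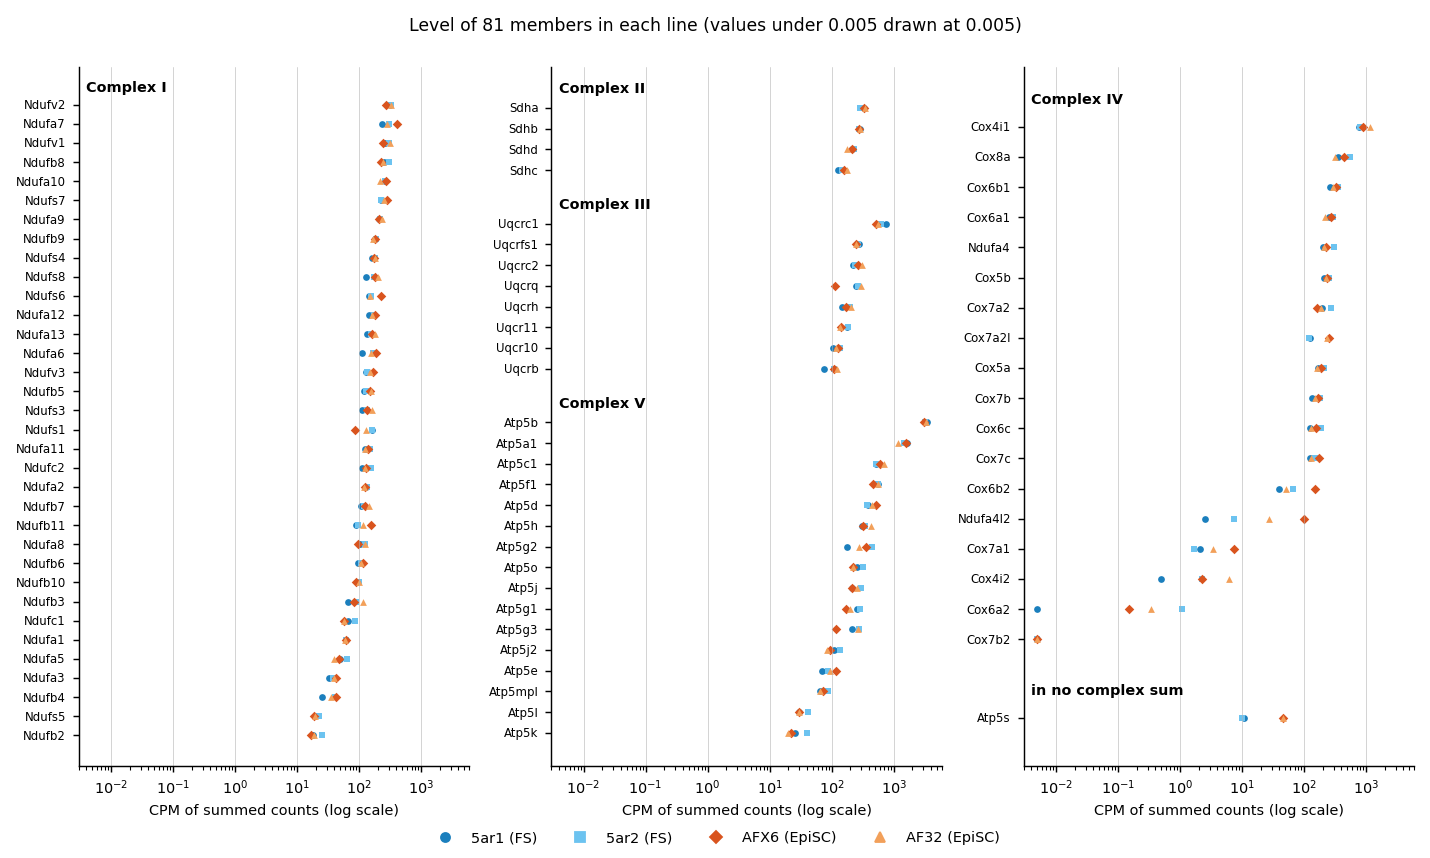
CPM of the summed counts of each line (log axis) for 81 members, grouped by complex and ordered by level, with 1 symbol per line. The 4 symbols of most members lie close together, and wider gaps include those of Atp5s, Ndufa4l2, Cox7a1, Cox4i2 and Cox6a2.

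Members of one complex did not share one transcript level, as measured by uniquely mapped reads. Atp5b, the catalytic beta subunit of the ATP synthase, led all members with 3444, 3230, 3092 and 3305 CPM in 5ar1, 5ar2, AFX6 and AF32. It held 16.5% of the member CPM, and the 10 leading members held 44.7%. Per kilobase of the principal transcript, the mean level of complex V members over the lines ran from 60.3 CPM per kilobase for Atp5l to 1705 for Atp5b. In complex I it ran from 37.1 for Ndufb4 to 578 for Ndufa7, a 15.6-fold range. In complex II it ran from 47.9 for Sdhc to 247 for Sdhb, and in complex III from 137 for Uqcrc2 to 569 for Uqcrq. In complex IV the highest was Cox4i1, the regulatory subunit next to the catalytic core, at 1216 CPM per kilobase. These orders depended on the length used. Per kilobase of all exons of a gene, a choice added after seeing the data, complex I ran 62.9-fold from 3.51 for Ndufb2 to 221 for Ndufa2. Sdhd, Uqcr11 and Cox8a then led complexes II, III and IV, while Atp5b and Atp5l kept the ends of complex V.

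Some of these levels are uncertain because only uniquely mapped reads were counted. For 16 members, part of the principal transcript was also found in a transcript of an annotated gene at another locus, in windows of 101 bases. Windows shared with a gene at the same locus were found for 16 members, and some members had both. The share of windows found at another locus was highest for Atp5g2, at 100% of its principal transcript of 441 bases. Next came Atp5l at 61.3%, Atp5g1 at 57.3%, Cox7c at 44.1%, Ndufb4 at 33.3%, Atp5h at 32.4% and Ndufs5 at 26.8%. How many reads these shared windows cost or lent a member was not tested. A processed pseudogene that shares windows with Ndufs5 was itself listed at 42.0 to 50.5 CPM, above Ndufs5 at 18.5 to 22.5 CPM.

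By complex, the shares of counts differed between lines by small factors. Complex I took 0.481% and 0.536% of counts in the FS lines 5ar1 and 5ar2, and 0.539% and 0.536% in AFX6 and AF32. Complex II, the succinate dehydrogenase that also serves the citrate cycle, took 0.0962%, 0.0944%, 0.0983% and 0.0977% in the same order. Both FS lines were below both EpiSC lines in complex II, with a difference of -0.00272 percentage points between the class means, FS minus EpiSC. This sign depended on the depth asked of a cell: with at least 1000000 counts it was 0.00119. Complex V took 0.825% and 0.854% in the FS lines against 0.797% and 0.816% in AFX6 and AF32, so that both FS lines were higher.

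Complex III took 0.199% and 0.202% of counts in the FS lines, 0.170% in AFX6 and 0.199% in AF32. AFX6 alone was low, and part of the gap came from 1 member. Without Uqcrq the shares were 0.174%, 0.176%, 0.159% and 0.169%. Complex IV took 0.294% in 5ar1 against 0.375% in 5ar2, with 0.376% in AFX6 and 0.349% in AF32, and here 5ar1 was the low line. This 1.28-fold range between the highest and the lowest line was the widest of the 5 complexes.

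**Figure D2:**
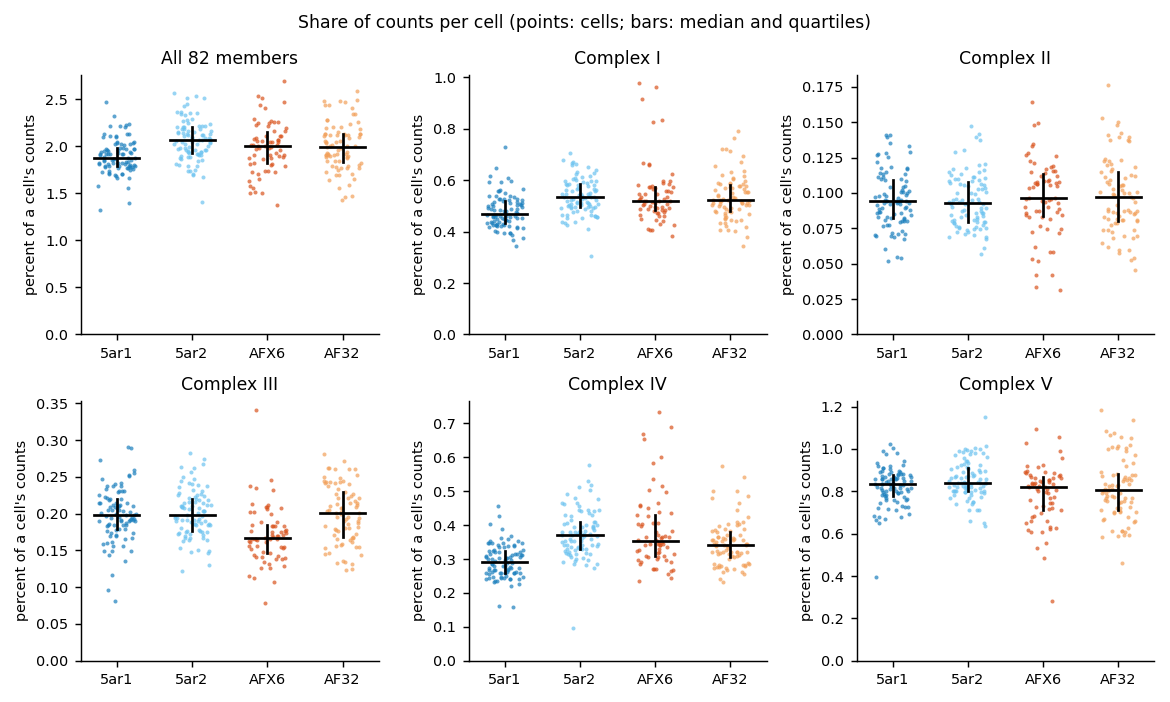
Percent of a cell's counts on all 82 members and on each complex, with 1 point per kept cell and bars for the median and quartiles of the line. The cells of the 4 lines overlap in every panel, complex III is lowest in AFX6 and complex IV in 5ar1.

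Single cells stayed near the level of their line. The share of counts on the members had a median of 1.87% in 5ar1 cells (quartiles 1.79% and 1.98%), 2.07% in 5ar2 (1.93% and 2.20%), 2.00% in AFX6 (1.82% and 2.15%) and 2.00% in AF32 (1.83% and 2.13%). No kept cell was under 1.32% or over 2.69%. The coefficient of variation over cells was 9.72% in 5ar1 and 10.3% in 5ar2, below the 13.5% of AFX6 and 12.8% of AF32. Both FS lines were thus the less variable ones in this measure.

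A lower spread in the FS lines was also seen over all genes. Among the 68 members with at least 50 CPM in every line, the median coefficient of variation over cells was 0.361 and 0.331 in 5ar1 and 5ar2, and 0.499 and 0.443 in AFX6 and AF32. Over all 3077 protein-coding genes at that level it was 0.540, 0.498, 0.751 and 0.687. Members had a higher median level than these genes, at 176 to 202 CPM against 123 to 135 CPM, and the part of level in their lower spread was not tested. Cells with more detected genes had a lower share on the members, with a Spearman rho of -0.284 and -0.616 in the FS lines 5ar1 and 5ar2, and of -0.474 and -0.215 in AFX6 and AF32.

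Members went up and down together across cells only weakly. The median Spearman rho over the 2278 pairs of these 68 members was 0.093 and 0.120 in 5ar1 and 5ar2, and 0.093 and 0.138 in AFX6 and AF32, against 0.004 to 0.030 over all pairs of the 3077 genes. Pairs within a complex (0.089 to 0.123) and pairs from different complexes (0.093 to 0.145) did not stand apart. On summed shares, complexes I and IV were the most alike, with rho between 0.606 and 0.687 in every line. Complexes II and IV had rho between -0.186 and 0.156. The pairs share the depth and the detected genes of their cells.

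FS cells and EpiSCs were then compared gene by gene, to ask which members separate the 2 states. In edgeR's quasi-likelihood test on the summed counts of the 4 lines, 0 of the 81 members tested had an adjusted p under 0.05, and 0 of all 22606 genes tested did (0.0%). At an unadjusted p under 0.05 there were 4 members, against 16.1% of all genes. DESeq2 called 3 members at an adjusted p under 0.05, against 11.1% of all genes, and limma called 0. These were 4.94% and 3.70% of the members, below the shares of all genes. The median absolute log2 fold change was 0.24 over the members and 0.62 over all genes tested, and 0.19 against 0.34 among those with at least 50 CPM in every line.

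Lines of the classes did not overlap for 14 members that were higher in FS cells, where 26.8% of all genes tested behaved so. They did not overlap for 21 members that were lower in FS cells, where 21.5% of all genes did. The members' shares were 17.3% and 25.9% in that order. With the median CPM over cells in place of the sums, 23 members were higher in both FS lines and 14 lower. No share over all genes was set beside these 2 counts, so they are not read as a result about the members. By complex, 5 complex I members were higher in both FS lines and 8 lower, in complex II 1 and 2, in complex III 3 and 2, in complex IV 1 and 5, and in complex V 4 and 3.

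**Figure D3:**
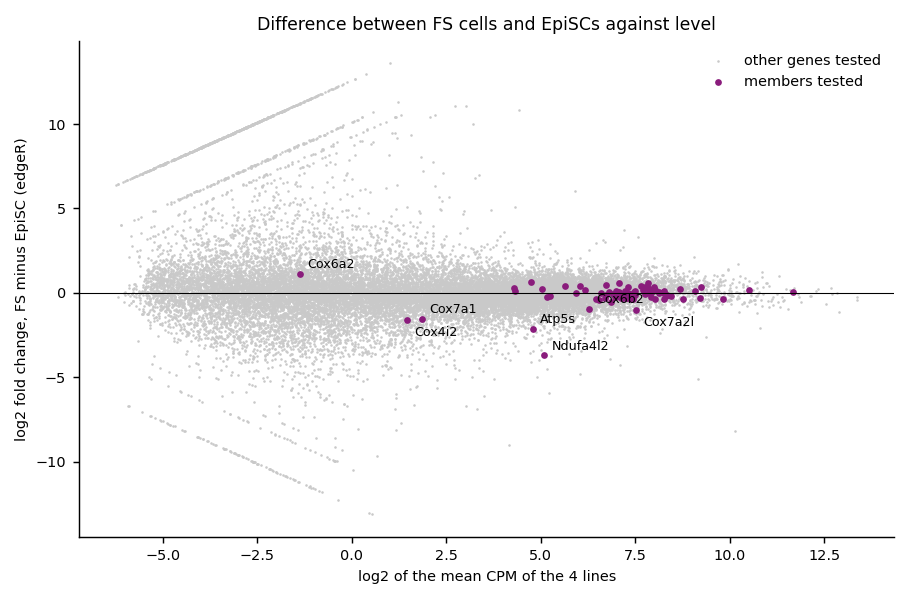
Log2 fold change between FS cells and EpiSCs (edgeR, 2 lines against 2) against the log2 of the mean CPM of the 4 lines, for the 81 members (purple) and all other genes tested (grey). Most members lie near 0 at high levels, and the 3 called by DESeq2, Atp5s, Cox7a2l and Ndufa4l2, lie below.

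The 4 members at an unadjusted p under 0.05 were Atp5s, Cox7a2l, Ndufa4l2 and Atp5g1, of which the first 3 were lower in FS cells. Atp5s (Dmac2l in RefSeq, chromosome 12, 69724950 to 69744660, plus strand, GRCm38) encodes a protein once described as a coupling factor of the ATP synthase. Its level was 10.7 and 10.1 CPM in FS lines 5ar1 and 5ar2, against 45.5 and 45.0 CPM in EpiSC lines AFX6 and AF32. The lines of a class were nearly equal, and EpiSCs were 4.35-fold higher. The log2 fold change was -2.13 ± 0.22 (SE, n = 2 lines against 2), with an adjusted p of 0.19 in edgeR and 3.37e-16 in DESeq2.

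The difference in Atp5s was visible in the cells as well. More than 5 CPM was found in 50.0% of 5ar1 cells (95% exact interval 39.3% to 60.7%), 46.7% of 5ar2 cells (36.1% to 57.5%), 78.8% of AFX6 cells (67.0% to 87.9%) and 81.2% of AF32 cells (71.0% to 89.1%). The median cell held 5.04, 2.63, 38.5 and 40.2 CPM in that order. Fewer cells above 5 CPM and a lower median over all cells thus went with the lower FS sums. This median includes cells without a count, so it does not give the level among cells with the transcript. Its promoter window held the SP motif and none of the other 4 motifs.

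Cox7a2l (chromosome 17, 83501918 to 83517330, minus strand) encodes the factor that joins complexes III and IV into supercomplexes. It stood at 125 and 120 CPM in the FS lines, against 250 CPM in AFX6 and 238 in AF32, 1.99-fold higher in EpiSCs. The log2 fold change was -1.0 ± 0.16 (SE), with an adjusted p of 0.19 in edgeR and 3.72e-05 in DESeq2. Every kept cell had at least 1 count. The quartiles of the cells were 91.9 and 151 CPM in 5ar1, 84.9 and 149 in 5ar2, 169 and 309 in AFX6, and 178 and 303 in AF32, so the middle of the FS cells lay below that of the EpiSCs. A processed pseudogene, Gm6969, shares 11.6% of its windows and was listed at 37.5, 36.6, 77.1 and 71.9 CPM, with the same lines high.

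Ndufa4l2 (chromosome 10, 127514967 to 127517154, plus strand) is a relative of the complex IV subunit Ndufa4 and is known as a target of the hypoxia-inducible factor HIF-1. It stood at 2.49 and 7.44 CPM in the FS lines 5ar1 and 5ar2, 100.4 CPM in AFX6 and 26.7 in AF32. EpiSCs were 12.8-fold higher, but AFX6 and AF32 differed 3.76-fold from each other and the FS lines 2.99-fold. The log2 fold change was -3.69 ± 0.96 (SE), with an adjusted p of 0.2 in edgeR and 0.0001 in DESeq2. Since edgeR called 0 of all genes tested, the missing call does not tell how far the difference rests on AFX6 or AF32.

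The level of Ndufa4l2 varied widely between cells of a line. More than 5 CPM was found in 12.2% of 5ar1 cells (95% exact interval 6.26% to 20.8%), 36.7% of 5ar2 cells (26.8% to 47.5%), 90.9% of AFX6 cells (81.3% to 96.6%) and 37.5% of AF32 cells (26.9% to 49.0%). The shares of 5ar2 and AF32 cells were within each other's intervals. Among AF32 cells the upper quartile was 38.1 CPM and the highest 295, against 11.5 and 47.2 in 5ar2. On the opposite strand the gene overlaps Shmt2, a mitochondrial serine enzyme, which was higher in FS cells at 644 and 465 CPM than in AFX6 at 278 and AF32 at 356. Hif1a stood at 91.7, 108, 105 and 118 CPM.

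**Figure D4:**
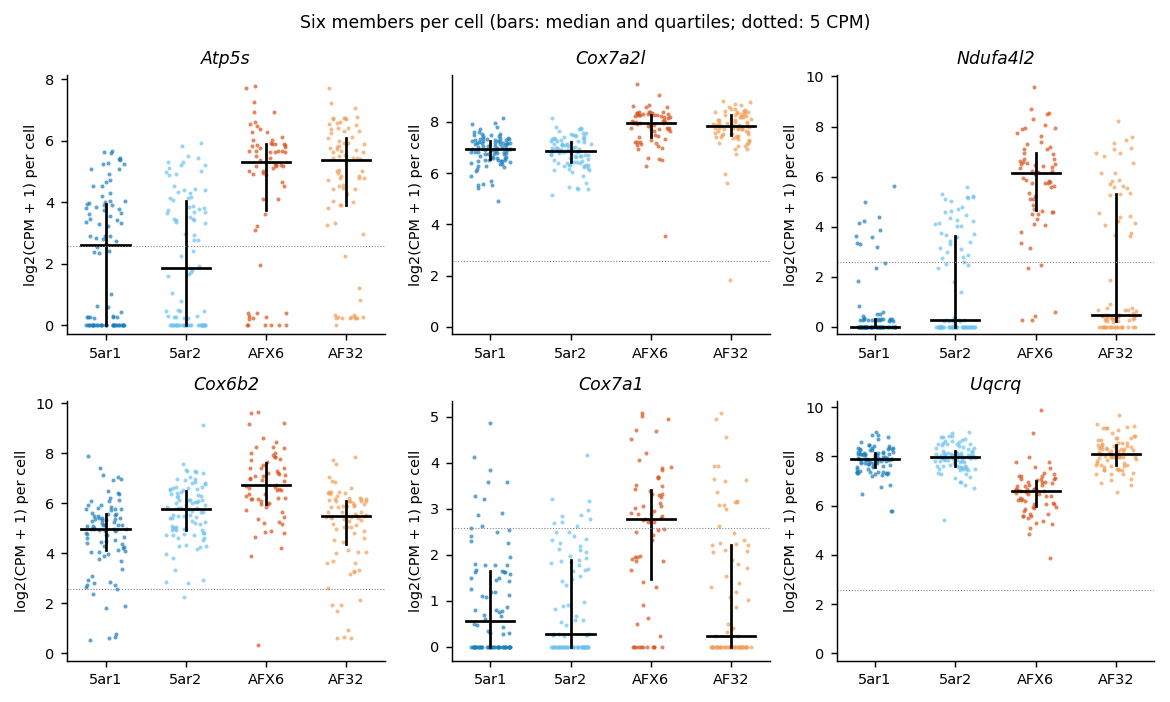
Log2 of CPM + 1 in each kept cell for 6 members, with bars for the median and quartiles and a dotted line at 5 CPM. Atp5s and Cox7a2l are higher in both EpiSC lines, Ndufa4l2, Cox6b2 and Cox7a1 are highest in AFX6, and Uqcrq is lowest in AFX6.

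Members higher in FS cells differed by less. Atp5g1 (chromosome 11, 96068852 to 96075670, minus strand), 1 of 3 genes for the membrane ring subunit c of the ATP synthase, stood at 258, 289, 170 and 196 CPM. It was 1.5-fold higher in FS cells, with a log2 fold change of 0.58 ± 0.17 (SE), an unadjusted p of 0.0256 and an adjusted p of 0.231 in edgeR. Copies make its level uncertain, as given above. Atp5k, a small membrane subunit, had the largest log2 fold change of the members whose lines did not overlap, 0.66 ± 0.33 (SE), with 25.6, 40.5, 22.2 and 19.5 CPM, and 5ar1 lay close to AFX6.

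Ndufs1, the largest iron-sulfur subunit of complex I, stood at 160 and 161 CPM in the FS lines, against 87.1 in AFX6 and 129 in AF32. Atp5j2 stood at 111, 137, 92.7 and 84.0 CPM, Cox7a2 at 193, 270, 160 and 187 CPM, and Ndufc1 at 65.2, 86.3, 56.7 and 56.7 CPM. The gap between the classes was smaller than that between the FS lines for Cox7a2 and Ndufc1. In the other direction Ndufb11, an X-linked membrane subunit of complex I, stood at 90.5, 96.4, 157 and 117 CPM, and Rbm10 on the opposite strand at 146, 125, 60.9 and 88.2 CPM. The adjusted p of these 5 members ran from 0.355 to 0.512 in edgeR.

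Among the tissue-type isoforms of complex IV, Cox6b2 was the only one above 10 CPM in every line. Cox6b2, the testis form of subunit VIb, stood at 39.5 CPM in 5ar1 and 66.6 in 5ar2, with 152 in AFX6 and 51.0 in AF32. It held 13.3% of the counts of the pair Cox6b1 and Cox6b2 in 5ar1 (95% exact interval 13.2% to 13.5%), 15.8% in 5ar2 (15.6% to 15.9%), 31.5% in AFX6 (31.3% to 31.7%) and 15.0% in AF32 (14.8% to 15.2%). Per kilobase of transcript the shares were 17.0%, 19.9%, 37.9% and 19.0%, and per kilobase of all exons 8.96%, 10.7%, 22.7% and 10.1%. AFX6 stood apart from the other 3 lines, and the classes overlapped. All cells of every line had at least 1 count, and the 3 male germ cell markers with a row (Ddx4, Sycp3 and Prm1) summed to 0.343 to 8.89 CPM per line.

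Cox7a1, the heart and skeletal muscle form, stood at 2.10, 1.68, 7.30 and 3.42 CPM. It held 1.08%, 0.618%, 4.37% and 1.79% of the counts of Cox7a1 and Cox7a2, and 1.03% to 7.12% of their level per kilobase. Both FS lines were lower, with a log2 fold change of -1.52 ± 0.63 (SE) and an adjusted p of 0.361 in edgeR. More than 5 CPM was found in 56.1% of AFX6 cells (43.3% to 68.3%) and in 11.1% to 20.0% of the cells of the other lines.

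Cox4i2, the lung form, stood at 0.492, 2.22, 2.24 and 6.15 CPM, which was 0.0639% to 0.532% of the counts of Cox4i1 and Cox4i2. 5ar2 and AFX6 were almost equal, and more than 5 CPM was found in 3.33% of 5ar1 cells, 16.7% of 5ar2, 13.6% of AFX6 and 22.5% of AF32 cells. Cox6a2, a muscle form, had 1 count in 5ar1 and reached 1.06 CPM in 5ar2, where 11 of 90 cells held a count. Cox7b2, a testis form, had 0, 1, 0 and 1 counts, and was the only member under 1 CPM in every line. In AFX6, 0 counts allow up to 0.00902 CPM. Cox8b and Cox8c had no row in the table.

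The widely expressed partners were high throughout. Cox4i1 stood at 770 and 800 CPM in the FS lines, 903 CPM in AFX6 and 1149 in AF32, and both FS lines were lower. Cox6a1 stood at 215 to 296 CPM, Cox6b1 at 257 to 356 CPM, Cox7b at 133 to 179 CPM and Ndufa4 at 203 to 299 CPM. In these 4 genes the lines of the classes overlapped.

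The 3 genes for subunit c, whose mature proteins are the same, were used in different proportions. Of their summed level per kilobase of transcript, Atp5g1 held 38.3% and 25.7% in 5ar1 and 5ar2, and 22.4% and 25.0% in AFX6 and AF32. Atp5g2 held 35.6%, 53.5%, 64.7% and 47.0%, and Atp5g3 26.1%, 20.7%, 12.9% and 28.0%. By this length Atp5g1 led in 5ar1 and Atp5g2 in the other lines. Per kilobase of all exons Atp5g2 led in every line, with 41.5% in 5ar1, where Atp5g1 was last with 20.6%. Only for Atp5g1 did the shares of the FS lines lie above both EpiSC lines, and for 5ar2 by less than 1 percentage point. The level of Atp5g2 per cell had quartiles of 145 and 196 CPM in 5ar1 but 356 and 501 CPM in 5ar2, and its copies make this level uncertain.

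The EpiSC lines differed in medium and line, and 3 members were at least 1.5-fold higher in AF32 than in AFX6, against 25.4% of the 11260 genes that reached 5 CPM in one of these lines. Another 3 were at least 1.5-fold lower, against 15.7%, out of 80 members. Uqcrq, a small subunit of complex III on chromosome 11, stood at 300 CPM in AF32 and 114 in AFX6, a ratio of 2.63 (95% exact conditional interval 2.60 to 2.66), and at 246 and 261 CPM in the FS lines. Its quartiles over cells were 62.7 and 129 CPM in AFX6 and 203 and 355 in AF32. Atp5g3, on chromosome 2, stood at 264 and 117 CPM, a ratio of 2.26 (2.23 to 2.28). Cox4i2, also on chromosome 2, was 2.74-fold higher (2.52 to 2.98).

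Other genes of these chromosomes moved the same way. The median log2 ratio of AF32 to AFX6 was 0.46 over 903 genes of chromosome 11 and 0.33 over its 4 members, 0.29 over 897 genes of chromosome 2 and 0.30 over its 6 members, and 0.48 and 0.19 on chromosome 8 with 3 members. The part of the chromosomes in the members' ratios was not tested. Ndufs1 at 1.49-fold and Ndufb3 at 1.4-fold, both on chromosome 1 where the median of 590 genes was 0.00, followed.

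Higher in AFX6 were Ndufa4l2 (3.76-fold, 3.68 to 3.85), Cox6b2 (2.98-fold, 2.93 to 3.03) and Cox7a1 (2.14-fold, 1.99 to 2.29), all isoforms of complex IV subunits. Ndufs6 at 1.48-fold and Ndufa7 at 1.43-fold followed. Over the 81 members tested, 38 (46.9%) were higher in AF32, near the 51.0% of all genes tested. The median absolute log2 ratio between the EpiSC lines was 0.19 over the members, against 0.62 over all genes tested. With at least 50 CPM in every line, this ratio was 0.19 over the members and 0.28 over all protein-coding genes. Transcript length went with the direction here too. Among genes with at least 50 CPM in every line, 35.3% of the members and 31.1% of other protein-coding genes under 800 bases were higher in AF32, against 84.6% and 55.6% at 1600 bases or more.

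Between the FS lines most members were higher in 5ar2. This held for 68 of 81 members tested (84.0%), against 49.5% of all 22606 genes, and the median log2 ratio of 5ar1 to 5ar2 was -0.23. With at least 50 CPM in every line, the median absolute log2 ratio was 0.22 over the members and 0.18 over all protein-coding genes. At least 1.5-fold higher in 5ar2 were 7 of 78 members, where 6.81% of 10744 genes were, and 0 members were at least 1.5-fold higher in 5ar1, where 12.1% of genes were. The 7 were Ndufa4l2 at 2.99-fold (2.79 to 3.21), Atp5g2 at 2.51-fold (2.49 to 2.53), Cox6b2 at 1.68-fold, Ndufb4 at 1.65-fold, Atp5k and Cox8a at 1.58-fold, and Cox6c at 1.53-fold. Of these, Atp5g2 and Cox6c lie on chromosome 15, Ndufb4 on 16 and Cox8a on 19. The median log2 ratio of 5ar2 to 5ar1 over all genes was 0.16, 0.08 and 0.26 on these chromosomes, and at or below -0.01 on every other one. Members higher in 5ar1 included Uqcrc1 at 1.18-fold and Sdha at 1.15-fold.

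Transcript length went with this difference in all genes. The principal transcripts of the members tested had a median length of 745 bases, against 2789 bases over all genes tested. Among genes with at least 50 CPM in every line and transcripts under 800 bases, 33 of 34 members and 120 of 135 other protein-coding genes (88.9%) were higher in 5ar2, with median log2 ratios of 0.31 and 0.29. From 800 to under 1600 bases these were 16 of 21 members and 60.7% of 677 other genes, with medians of 0.19 and 0.06. At 1600 bases or more they were 8 of 13 members and 39.6% of 2197 other genes, with medians of 0.02 and -0.06. The lengths were looked at after the difference was seen, and their part in it was not tested. Between FS cells and EpiSCs the medians of members under 800 bases and of the other genes of that length were 0.01 and -0.07.

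**Figure D5:**
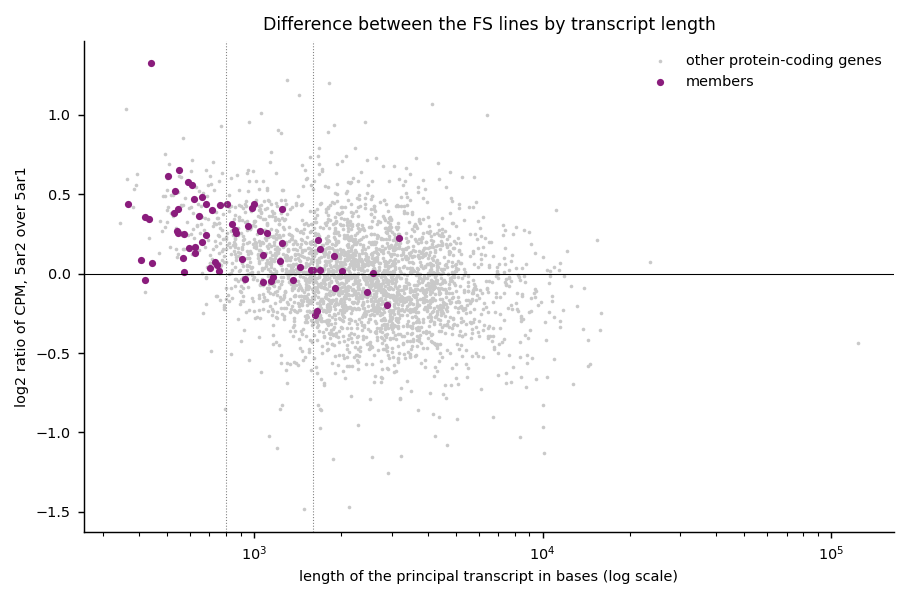
Log2 ratio of CPM in 5ar2 over 5ar1 against the length of the principal transcript (log axis), for 68 members (purple) and 3009 other protein-coding genes (grey) with at least 50 CPM in every line. Dotted lines mark 800 and 1600 bases, and most transcripts under 800 bases lie above 0, for members and for other genes.

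Genes that serve the same complexes were examined from lists of carriers, assembly factors and regulators. Cytochrome c (Cycs), which carries electrons from complex III to IV, stood at 186, 227, 124 and 59.0 CPM, with a log2 fold change of 1.16 ± 0.43 (SE) and an adjusted p of 0.31 in edgeR. Its testis form Cyct had 41, 27, 0 and 0 counts. Cyc1, the cytochrome subunit of complex III whose symbol the rule does not cover, stood at 413, 372, 400 and 359 CPM. On the same list were Ndufab1, an acyl carrier protein that is also a complex I subunit, and Coq7 and Coq9, which act in ubiquinone synthesis. Ndufab1 stood at 167 to 228 CPM, Coq7 at 102 to 121 CPM and Coq9 at 43.8 to 85.1 CPM.

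Of the 49 assembly factors in the table, 0 passed the adjusted p in edgeR, 7 had an unadjusted p under 0.05, and DESeq2 called 2 higher and 3 lower in FS cells. These were 14.3% and 10.2% of the factors, against 16.1% and 11.1% of all genes. Lyrm7, which holds the iron-sulfur subunit of complex III before insertion, stood at 1.58 and 1.80 CPM in the FS lines against 6.5 and 10.3 CPM (DESeq2 adjusted p 5.82e-05). Cox17, a copper chaperone of complex IV, stood at 6.33 and 6.17 against 16.0 and 12.6 CPM (0.00691), and Ndufaf7 at 53.4 and 57.8 against 103 and 89.1 CPM (0.0106). Uqcc3 and Acad9 were higher in both FS lines, with 55.5 and 75.9 against 20.4 and 35.9 CPM (0.0343) and 68.1 and 73.7 against 44.3 and 39.4 CPM (0.026).

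Of the 15 listed regulators, 14 had a row in the table, and Ppargc1a had none. Of these 14, 0 passed the adjusted p in edgeR. An unadjusted p under 0.05 and a call by DESeq2 were found for 2 (14.3%), against 16.1% and 11.1% of all genes. Tfam, which packages and transcribes mitochondrial DNA, stood at 94.0 and 98.3 CPM in the FS lines against 48.3 and 58.5 CPM, with a log2 fold change of 0.84 ± 0.19 (SE) and an adjusted p of 0.19 in edgeR and 0.00974 in DESeq2. Gabpb1, a partner of the ETS factor Gabpa, stood at 67.6 and 71.9 against 120 and 112 CPM (0.19 and 0.00738). Nrf1 stood at 106, 97.1, 69.7 and 98.1 CPM, Gabpa, which overlaps Atp5j on the opposite strand, at 30.7 to 39.4 CPM and Yy1 at 27.6 to 35.5 CPM. Esrra was at 3.30 to 5.46 CPM, Esrrb at 0.354 to 0.938 CPM and Esrrg at 0.0361 to 1.03 CPM. Ppargc1b stood at 4.14 to 8.94 CPM and Pprc1, a related coactivator, at 90.1, 137, 63.1 and 86.9 CPM. Tfb1m, Tfb2m and Polrmt, of the mitochondrial transcription machinery, ran from 10.7 to 41.9 CPM.

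The mitochondrial ribosome translates the mitochondrial subunits, and 77 of its 78 listed genes were tested. Of these, 35 were higher in both FS lines (background 26.8%) and 6 lower in both (21.5%), with a median log2 fold change of 0.20, against -0.02 for the members. A total of 0 passed the adjusted p in edgeR, 11 had an unadjusted p under 0.05, and DESeq2 called 3, all higher in FS cells. These were 14.3% and 3.9% of the list, below the 16.1% and 11.1% of all genes. Mrpl20 stood at 160 and 165 CPM against 37.2 and 59.8 CPM (DESeq2 adjusted p 1.88e-05), Mrps11 at 55.0 and 64.4 against 26.0 and 36.5 CPM, and Mrps12 at 73.5 and 77.9 against 46.3 and 48.5 CPM.

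Of the enzymes that feed the chain, 13 of the citrate cycle gave 5 higher and 3 lower in both FS lines, and 0 passed the adjusted p in edgeR, with 2 at an unadjusted p under 0.05. These were 38.5%, 23.1% and 15.4%, against 26.8%, 21.5% and 16.1% of all genes. DESeq2 called 7.69% of the citrate cycle list, against 11.1% of all genes. The gene called was Ogdh, of the oxoglutarate dehydrogenase complex, at 72.1 and 74.4 against 110 and 133 CPM (adjusted p 0.0164). Pdk1 and Pdk2, kinases that switch off pyruvate dehydrogenase, stood at 103 and 80.3 against 152 and 191 CPM and at 10.5 and 13.7 against 38.3 and 42.9 CPM (adjusted p 0.191 and 0.19 in edgeR, 0.016 and 3.83e-07 in DESeq2). In the list of pyruvate dehydrogenase genes, DESeq2 called 28.6% of the 7 tested, against 11.1% of all genes. Of the other kinases, Pdk3 overlapped between the classes, at 86.6 and 80.5 against 118 and 77.6 CPM. Pdk4 stood at 3.90 CPM in AFX6 and at 0.00464 CPM or less in the other lines. The 4 catalytic and binding subunits Pdha1, Pdhb, Dlat and Pdhx had log2 fold changes from -0.27 to 0.52. Nnt, the proton-driven transhydrogenase, was listed at 2.19 to 2.79 CPM in every line, and Ucp2 at 327 to 463 CPM.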

How the data were processed

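Smart-seq2 libraries of 384 single cells were analysed. The authors aligned reads to GRCm38.p6 with STAR 2.7.3a and deposited counts of uniquely mapped reads per gene from featureCounts 2.0.0. A deposited table of sctransform scores, which correct for depth, served as an alternative. Strand-specific counting is not described, so reads of 37 members that overlap another gene may be uncertain.

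Symbols and exons came from GENCODE M21. For each line the counts of its kept cells were added and expressed as CPM, and per kilobase by the principal transcript (best APPRIS rank, then support level, then the shortest). edgeR 4.0.16 in R 4.3.3 (TMM, filterByExpr, quasi-likelihood test, Benjamini-Hochberg) compared 2 FS with 2 EpiSC lines across all genes, with an adjusted p under 0.05 as a call. The SE is the absolute log2 fold change over the square root of F. The procedure was tested on simulated data. The lines share no replicate number, and p-values measure the spread between these lines only.

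Ratios of summed counts have exact conditional 95% intervals. Shares of cells and of isoform counts have exact Clopper-Pearson intervals (scipy 1.17.1). Intervals on counts treat each read as independent, although reads were not collapsed to molecules. These intervals cover neither the counting of molecules nor the spread between cells or lines. Intervals on shares of cells cover only the sampling of cells within a line. A count of 0 allows up to 3 counts. Copies were sought in annotated transcripts only. Alternatives were DESeq2 1.42.0, limma 3.58.1, other scalings, filters, depths, thinning and each line left out. Few genes were detected (over 3 scaled median absolute deviations under the line's median) in 1, 1, 0 and 3 cells of 5ar1, 5ar2, AFX6 and AF32. The columns not matched to a sample numbered 0. Plots used matplotlib 3.10.9.

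Named members are the highest and lowest per kilobase in each complex, every tissue-type isoform, the 6 largest log2 fold changes each way among lines that do not overlap, members called by edgeR, the 5 largest ratios each way between EpiSC lines and 3 between FS lines at 5 CPM or more, members under 1 CPM throughout, the members with most copies, and all listed carriers and regulators. Of the members so named, 1 is not reported here. Others were named after their values were seen. The members, lists and tests were chosen with earlier results of these data known.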

Additional observations from a re-analysis of the deposited data

How the results depend on the processing

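Each class had 2 lines, and leaving out a line leaves 1 line whose spread is assumed to be that of the other class. Of 153 alternative values for the answers to the comparisons, 144 stayed within the limits set. DESeq2 called 3 members where edgeR called 0, and 2 with an absolute log2 fold change over 1.4, a limit added after seeing the data. edgeR with other scalings, filters and depths, and limma, called 0 members. In the main fit edgeR called 0 of all 22606 genes tested. Its 0 calls at other settings therefore do not tell whether members differ, and are no support for stability. Median CPM over cells gave 23 members higher in both FS lines in place of 14, with no share over all genes beside it. At a minimum of 1000000 counts per cell, complex II turned from lower to higher in FS cells, by 0.00119 percentage points, the difference for complex V rose from 0.0328 to 0.0527 percentage points, and 5 members were at least 1.5-fold higher in AFX6 in place of 3. The members higher in 5ar2 numbered 2 at 2-fold and 4 at 50 CPM or more, in place of 7, and median CPM gave 1 member higher in 5ar1 in place of 0. Shares over all genes were not set beside the counts of members at these other limits, depths and measures. Those counts are therefore not read as a result about the members. The sum over members turned from -0.0151 to 0.00725 percentage points between FS cells and EpiSCs without members on chromosomes 2, 8, 10, 11, 15, 16 and 19, less than the spread between lines. The causes were not tested, except that higher limits leave fewer members. Of the 12 named members, 0 of 156 alternative log2 fold changes reversed, and DESeq2 called Atp5s (-2.15), Cox7a2l (-1.02) and Ndufa4l2 (-3.72). Members named because their lines did not overlap can hardly reverse when a line is left out. The 0 reversals are therefore no support for them. No paired analysis was possible because cell numbers do not pair cells and the lines share no number.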
